A study of Mus musculus with 24 samples.

Results

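The tumour suppressor p53, encoded by Trp53 in the mouse, is a transcription factor that is held low by the ubiquitin ligase Mdm2 and stabilised by DNA damage and other stresses. It then binds paired half-sites in DNA and raises a set of genes that arrest the cell cycle, repair DNA, limit oxidative damage or trigger apoptosis, and Mdm2 is itself one of them. In liver these genes also respond to toxic and nutritional stress, and several of them are controlled by other pathways as well. The 10 p53 target genes described here are Cdkn1a, Mdm2, Ccng1, Bax, Phlda3, Trp53inp1, Sesn1, Btg2, Gdf15 and Eda2r. They were found as every non-control probe whose gene name in the scanner files was 1 of these symbols, which gave 18 of the 56605 probes. The signal was high enough for testing at 14 of the 18 probes, which represent 9 of the 10 genes, among 32078 tested probes and 16847 named genes.

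The data were single-colour Agilent arrays of liver RNA from C57BL/6J mice, 24 arrays in 4 labelled groups of 6. The labels cross sex with diet, giving male and female mice on a control diet and male and female mice on a diet with pesticides. The labels name no altered gene. The mice were bought at 8 weeks of age, had 2 weeks to settle in and ate their diet for 52 weeks. The age label is 68 weeks for every array. No label ties an array to a numbered mouse. The p-values measure only the spread between the 6 samples within each group, which limma pools over the 4 groups. The labels used here do not name the pesticides or their doses.

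Transcripts of the sex chromosomes went against the sex label on 12 of the 24 arrays. Xist, the X-inactivation RNA of female cells, was well above background on all 6 arrays of each labelled pesticide group and on none of the 12 arrays labelled control. The Y-linked genes Eif2s3y, Ddx3y, Kdm5d and Uty showed the opposite pattern, with 6 of 6 arrays above background in each labelled control group and 0 of 6 in each labelled pesticide group. Labelled diet and the sex read from these transcripts therefore cannot be told apart, and every direction below is a difference between labelled groups. Hepatocyte markers were bright on all arrays, with a summed level of 20.29 to 20.40 on the log2 scale, and 0 of 6 of them passed in either labelled sex. Arrays correlated at 0.972 to 0.996, and 29935 to 39032 probes per array were well above background.

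The probes that carry the results for Cdkn1a and Mdm2 are 60 bases long, and the first 30 bases of each are shown because probes of the same gene gave very different signals. Positions are those of the files, on mouse build mm9.
Cdkn1a probe A_51_P363947, chr17:29237377-29237436, plus strand: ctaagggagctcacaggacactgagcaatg
Cdkn1a probe A_55_P1976204, chr17:29235299-29235358, plus strand: tggggtagtttccatagtgacccgggtcct
Cdkn1a probe A_55_P1986282, chr17:29227986-29228045, plus strand: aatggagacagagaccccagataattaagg
Mdm2 probe A_55_P1975475, chr10:117126010-117126069, minus strand: ggcagcttcagtcccgatttacaataaagt
Mdm2 probe A_55_P2606086, chr10:117139375-117142253, minus strand: aaagtccgttggagcgcaaaacgacactta
The second Mdm2 probe spans 2879 bases of genome with 60 bases of probe, so it crosses at least 1 intron. An mm9 gene annotation was not used here, so exons and untranslated regions are not assigned.

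The DNA just before the start sites was searched for the p53 half-site consensus, a sequence of 10 bases read on both strands. RefSeq promoters of build GRCm38.p6 matched 9 of the 10 genes with 12 start sites. Within the 250 bases before the start, 5 of these 12 held a half-site, against 7.1% of 32851 promoters in the table. A pair of half-sites with at most 2 mismatches in all and 0 to 13 bases between them lay in 3 of the 12, against 1.8% of all promoters. These 3 are shown with Mdm2, which had a single half-site there, and capitals mark the half-sites.
Cdkn1a, chr17:29090729-29090978, plus strand: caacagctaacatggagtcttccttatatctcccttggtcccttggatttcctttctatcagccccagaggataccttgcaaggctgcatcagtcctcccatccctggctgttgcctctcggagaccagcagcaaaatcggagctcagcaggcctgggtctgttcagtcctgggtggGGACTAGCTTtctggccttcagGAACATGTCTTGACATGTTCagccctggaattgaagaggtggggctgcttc
Bax, chr7:45466899-45467148, minus strand: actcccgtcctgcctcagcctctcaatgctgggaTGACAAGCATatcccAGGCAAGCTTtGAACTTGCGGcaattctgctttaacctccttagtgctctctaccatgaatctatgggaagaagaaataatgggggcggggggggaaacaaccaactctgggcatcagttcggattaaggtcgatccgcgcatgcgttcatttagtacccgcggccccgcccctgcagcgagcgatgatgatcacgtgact
Sesn1, chr10:41887189-41887438, plus strand: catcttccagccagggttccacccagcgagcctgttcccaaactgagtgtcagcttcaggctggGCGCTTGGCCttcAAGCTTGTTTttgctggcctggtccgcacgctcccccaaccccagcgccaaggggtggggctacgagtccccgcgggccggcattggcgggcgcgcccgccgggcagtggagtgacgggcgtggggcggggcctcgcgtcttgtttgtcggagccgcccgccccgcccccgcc
Mdm2, chr10:117710759-117711008, minus strand: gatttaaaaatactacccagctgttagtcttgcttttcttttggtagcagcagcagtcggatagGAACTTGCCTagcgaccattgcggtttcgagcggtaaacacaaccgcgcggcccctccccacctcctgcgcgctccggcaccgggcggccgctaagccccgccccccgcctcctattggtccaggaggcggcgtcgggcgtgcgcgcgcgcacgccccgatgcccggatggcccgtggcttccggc
In the Cdkn1a window shown, 2 full half-sites stood 12 bases apart. The second of them touched a further half-site, with 1 mismatch in that pair. The pairs of Bax and Sesn1 had 2 mismatches each. Ccng1 also had a single half-site, and the windows of Phlda3, Btg2, Gdf15 and Eda2r held none. The other Cdkn1a window, chr17:29093519-29093768, and the other Sesn1 window, chr10:41810324-41810573, held none either. Which start site gave the Cdkn1a signal was not tested. The matches are descriptions of these windows only, since the arrays measured RNA and no binding.

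Few of the 9 tested genes differed between the labelled diets, and they did not move one way. In labelled males 2 of 9 passed at an adjusted p under 0.05 and both were higher with the pesticide label: Gdf15, a secreted stress cytokine, and Sesn1, a sestrin that restrains growth signalling and oxidative damage. Over all named genes, each by its brightest probe, 24.9% passed in labelled males, with 14.0% higher and 10.9% lower. In labelled females 2 of 9 passed, Trp53inp1 higher and Mdm2 lower, against 20.3% of all named genes, 10.3% higher and 10.1% lower. The members' share was near the background in both comparisons. By probe, 2 of 14 passed in each labelled sex, against 22.2% and 18.3% of all tested probes. Of the probes that passed in labelled males, 52.1% were higher, and this share was 38.1% when the median signal was scaled to each array's 75th percentile instead of quantile normalised. The median log2 fold change of the 9 genes was 0.21 in labelled males and 0.13 in labelled females, beside -0.02 and -0.01 over all named genes. No member's labelled groups were separate in any comparison, whereas 10.2% of tested probes had separate groups in labelled males and 7.83% in labelled females. In bulk liver RNA, fewer cells of a type and less RNA per cell cannot be told apart.

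**Figure D1:**
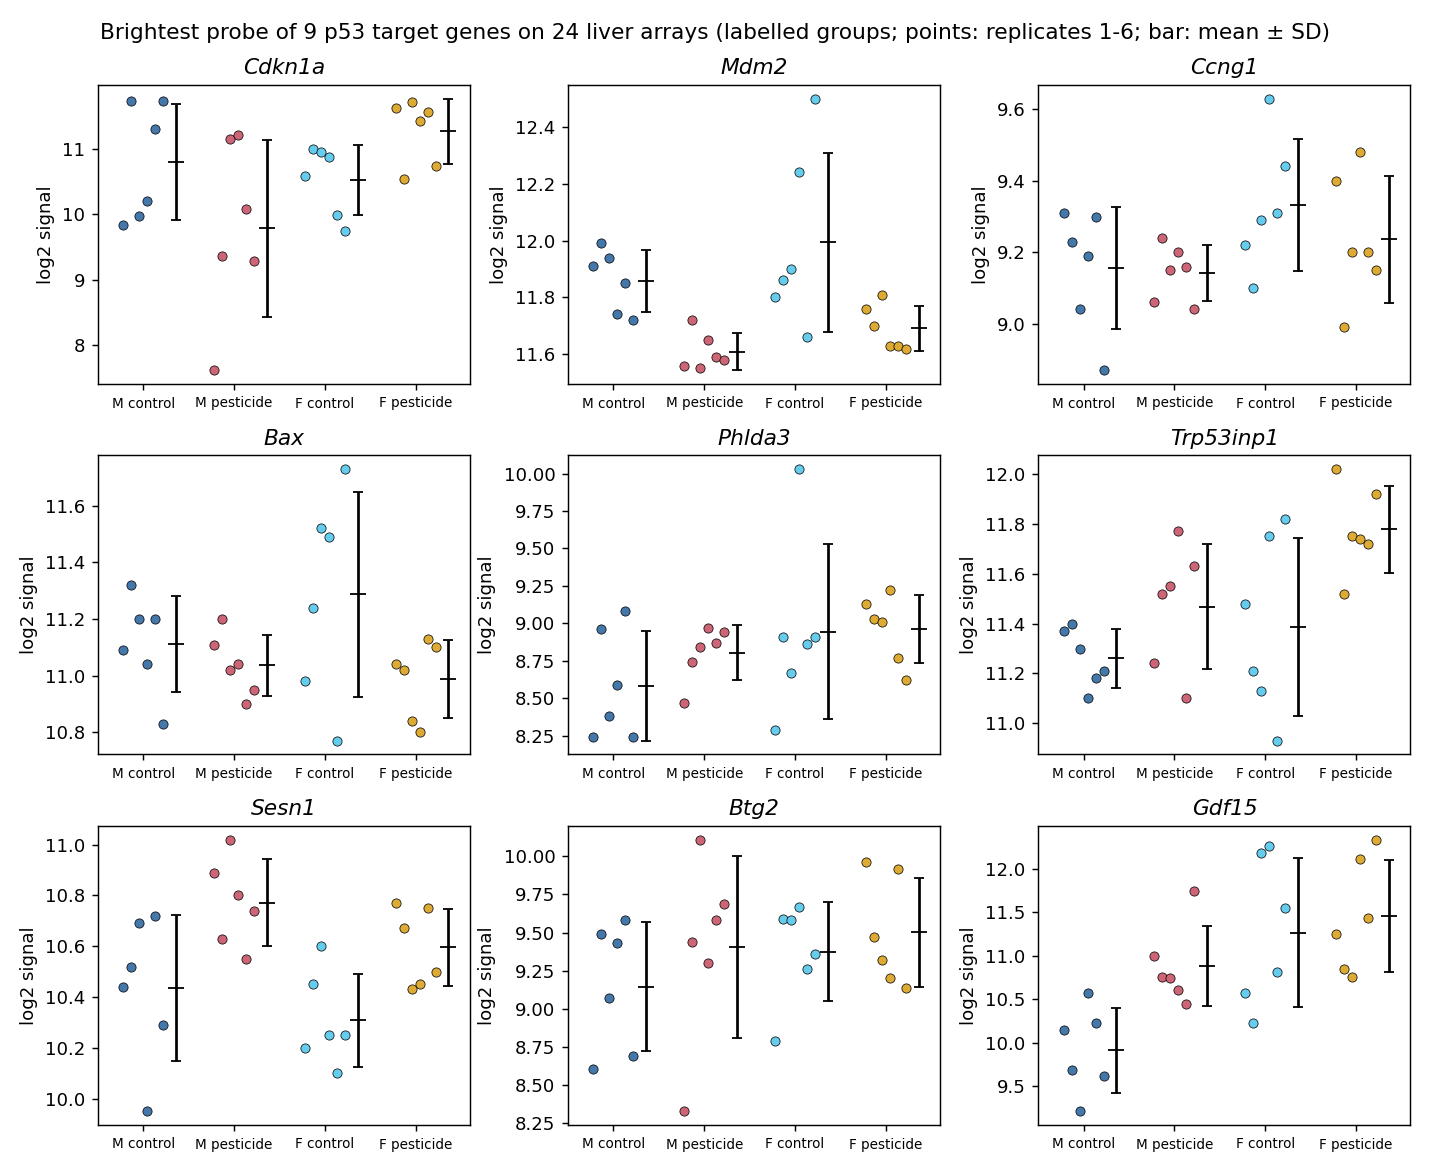
Log2 signal of the brightest probe of each of the 9 tested p53 target genes (vertical axis, own scale in each panel) on the 6 arrays of each labelled group (M male, F female; points in replicate order), with the group mean and SD beside them. The groups overlap in every panel; Cdkn1a spans 7.62 to 11.73, and the highest Mdm2 signals are on labelled female control 4 and 6.

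**Figure D2:**
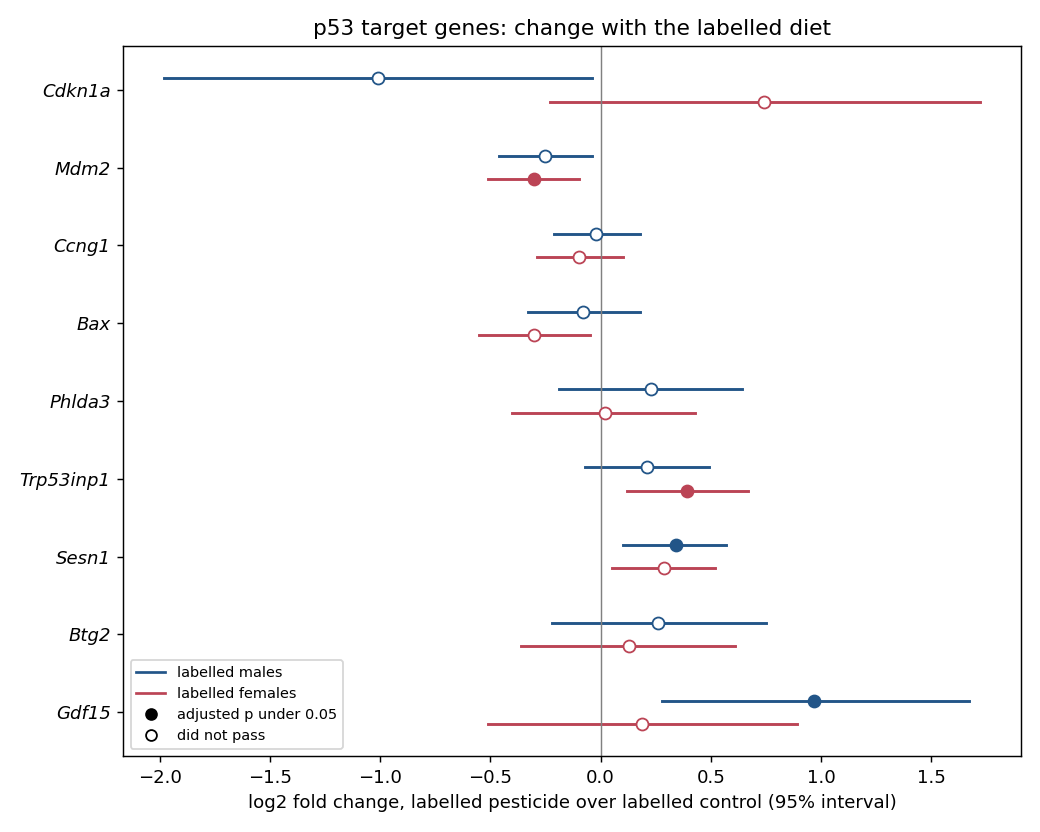
Log2 fold change with its 95% interval (horizontal axis) for the 9 genes in labelled males (blue) and labelled females (red), filled where the adjusted p was under 0.05. Gdf15 and Sesn1 are filled in blue and Mdm2 and Trp53inp1 in red; Cdkn1a has the widest intervals, at -1.01 in labelled males and 0.74 in labelled females.

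Cdkn1a encodes p21, the inhibitor of cyclin-dependent kinases through which p53 halts the cell cycle. Its bright probe A_51_P363947 read 9.83, 11.73, 9.97, 10.21, 11.30 and 11.73 on labelled male control arrays 1 to 6. On labelled male pesticide arrays 1 to 6 it read 7.62, 9.37, 11.15, 11.21, 10.08 and 9.28. Labelled male pesticide 1 was the lowest of all 24 arrays, and 3 of that group's 6 arrays lay below every labelled male control array while the other 3 lay inside their range. On labelled female control arrays 1 to 6 the values were 10.58, 10.99, 10.95, 10.88, 9.99 and 9.74. On labelled female pesticide arrays 1 to 6 they were 11.62, 10.54, 11.72, 11.42, 11.56 and 10.73. There, 4 of the 6 arrays lay above every labelled female control array and the other 2 lay inside their range.

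The Cdkn1a means were 10.79 ± 0.89 in labelled male control, 9.78 ± 1.35 in labelled male pesticide, 10.52 ± 0.53 in labelled female control and 11.26 ± 0.50 in labelled female pesticide (SD, n = 6 each). The labelled pesticide difference was -1.01 (95% interval -1.98 to -0.04, adjusted p = 0.13, limma) in labelled males and 0.74 (-0.23 to 1.72, adjusted p = 0.29, limma) in labelled females. Neither passed. The difference between these 2 effects was -1.75 (-3.13 to -0.38), with an unadjusted p of 0.015 and an adjusted p of 1 in limma. Between the labelled sexes, Cdkn1a differed by -1.48 (-2.45 to -0.51, unadjusted p = 0.0045, adjusted p = 1, limma) on the pesticide label and by 0.27 (-0.70 to 1.25) on the control label, male minus female. No probe of the whole array passed in these 3 comparisons at the adjusted threshold, and the background there was 0%. Slide by slide, with 2 arrays of each group per slide, the labelled male difference of Cdkn1a was -2.29, 1.09 and -1.83, so its direction turned on the second slide, and it passed on the second slide (adjusted p = 0.021, limma) and the last one (adjusted p = 0.049, limma). The labelled female difference was 0.30, 0.65 and 1.28.

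Cdkn1a varied more within groups than most transcripts. Its within-group SD was 0.89, larger than that of 99.6% of tested probes, and its signals spanned 17.3-fold over the 24 arrays. The second probe, A_55_P1976204, was much dimmer, with group means from 5.89 to 6.49 and 18 of 24 arrays well above background. It followed the bright probe across arrays, with r = 0.84 after group means were subtracted. Its labelled differences were -0.24 in labelled males and 0.24 in labelled females, and neither passed. The remaining probe, A_55_P1986282, lies upstream of the others on the plus strand and was above background on 1 of 24 arrays, with 4.95 to 5.41 throughout.

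Mdm2, the ligase that removes p53, is measured in the same array order to set it beside Cdkn1a. Its bright probe A_55_P1975475 read 11.91, 11.99, 11.94, 11.74, 11.85 and 11.72 on labelled male control arrays 1 to 6. It read 11.56, 11.72, 11.55, 11.65, 11.59 and 11.58 on labelled male pesticide arrays 1 to 6. Only the values at 11.72 kept these groups from separating. On labelled female control arrays 1 to 6 it read 11.80, 11.86, 11.90, 12.24, 11.66 and 12.50. On labelled female pesticide arrays 1 to 6 it read 11.76, 11.70, 11.81, 11.63, 11.63 and 11.62. Labelled female control 4 and 6 were the highest of all 24 arrays, while labelled female control 1 and 5 lay within the range of the labelled female pesticide arrays.

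Mdm2 fell by 0.30 in labelled females (SE 0.10, adjusted p = 0.036, limma), from 11.99 ± 0.31 to 11.69 ± 0.08 (SD, n = 6 each). In labelled males the difference was -0.25 (SE 0.10, adjusted p = 0.076, limma), from 11.86 ± 0.11 to 11.61 ± 0.06, and did not pass. With either 75th percentile scaling it passed in labelled males too, at -0.36 and -0.33. The labelled female call rested on few arrays: without labelled female control 4 and 6 together the difference was -0.12 (adjusted p = 0.27, limma), and it was also lost without either of them alone, without labelled female pesticide 2, 4, 5 or 6, and on each slide alone (-0.11, -0.35 and -0.46). The labelled male difference, in which these 2 arrays enter only through the shared spread, passed without them (-0.25, adjusted p = 0.0053, limma) and without labelled female control 6 alone. Fitted on only the arrays compared, Mdm2 passed in labelled males (-0.25, adjusted p = 0.016, limma) and not in labelled females (-0.30, adjusted p = 0.12, limma). With no filter on dim probes the labelled female call was lost as well (adjusted p = 0.063, limma). The dimmer probe A_55_P2606086 had differences of -0.25 and -0.19, with the same sign, and neither passed. Its r with the bright probe was 0.47 after group means were subtracted.

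No relation between Cdkn1a and Mdm2 was detected over all arrays, and whether the slides differ was not tested. After group means were subtracted, Pearson's r was -0.06 (permutation p = 0.73) and Spearman's rho was -0.02 (permutation p = 0.91) over 24 arrays. This was the only relation between members that was tested, so no adjustment over a family applies. Without labelled male pesticide 1 and 4, the 2 arrays farthest from the Cdkn1a median, r was -0.15. By slide, with 8 arrays each, r was 0.92 (exact permutation p = 0.12), -0.04 (exact permutation p = 1) and -0.24 (exact permutation p = 0.5). Each group had 2 arrays per slide, so their deviations from the group mean mirror each other. With 16 rearrangements within groups on a slide, 0.12 is the smallest two-sided p a slide can give, so no slide alone could pass and the 0.92 is given as a value. Without labelled female control 4 and 6, r was 0.14.

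**Figure D3:**
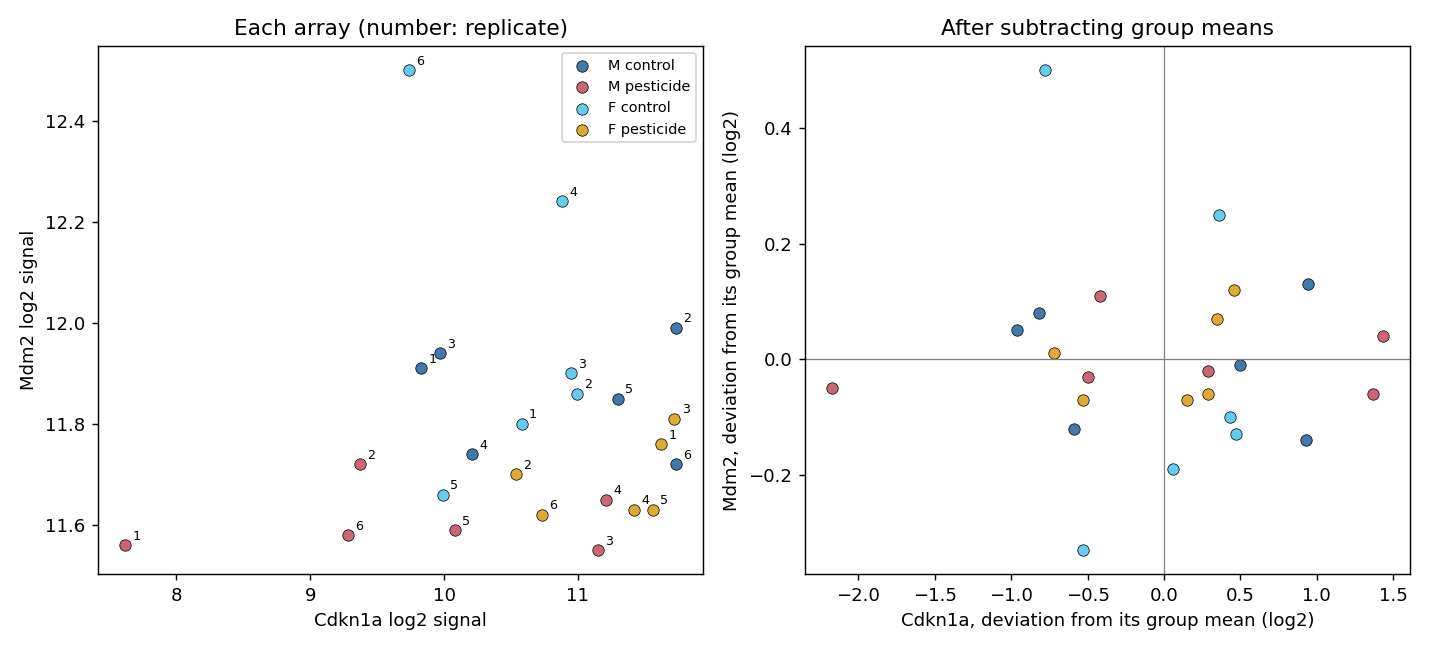
Log2 signal of Cdkn1a (horizontal) against Mdm2 (vertical) on 24 arrays, as measured with replicate numbers (left) and after each labelled group's mean was subtracted (right). Labelled female control 4 and 6 stand above all other arrays for Mdm2 at 12.24 and 12.50, and labelled male pesticide 1 stands lowest for Cdkn1a at 7.62; on the right the points show no common slope, with r = -0.06.

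By rule, the 5 named genes most like each of them were taken from 23492 probes above background on all arrays, by r over the 24 arrays after group means were subtracted. For Cdkn1a these were Zbtb16 (r = 0.80), Shld2 (0.75), Hnrnpc (0.75), Gskip (0.74) and Tsc22d3 (0.73). Zbtb16 is a zinc finger repressor, and Tsc22d3 encodes a glucocorticoid-induced leucine zipper protein. Among the members, Btg2 was most like Cdkn1a, at 0.55. For Mdm2 the most alike was Polk (0.86), a translesion DNA polymerase that is also in the list of other p53 targets below. Next came Cdt1 (0.84), a replication licensing factor, and Mthfd2 (0.84), an enzyme of mitochondrial folate metabolism. Ncaph (0.82), a condensin subunit, and Rbbp8 (0.82), a DNA end resection factor, followed. Bax (0.75) and Trp53inp1 (0.69) were the members most like Mdm2. All these r share the 24 arrays, and for Mdm2 the 2 highest labelled female control arrays.

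Ccng1 encodes cyclin G1, a p53-induced protein that feeds back on Mdm2. Its lowest, median and highest signals were 8.87, 9.21 and 9.31 in labelled male control and 9.04, 9.15 and 9.24 in labelled male pesticide. In labelled female control they were 9.10, 9.30 and 9.63, and in labelled female pesticide 8.99, 9.20 and 9.48. The 4 ranges overlapped throughout. The differences were -0.02 (95% interval -0.21 to 0.18) in labelled males and -0.10 (-0.29 to 0.10) in labelled females, the narrowest intervals among the 9 genes.

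Bax, Phlda3, Trp53inp1 and Eda2r belong to the apoptotic side of the response. Bax, which permeabilises the mitochondrial outer membrane, read 10.83, 11.14 and 11.32 (lowest, median, highest) in labelled male control and 10.90, 11.03 and 11.20 in labelled male pesticide. In labelled female control it read 10.77, 11.37 and 11.73, and in labelled female pesticide 10.80, 11.03 and 11.13. Labelled female control had the widest range, and its arrays 3, 4 and 6 lay above all other arrays. The difference was -0.30 in labelled females (adjusted p = 0.092, limma) and -0.08 in labelled males, and neither passed. The labelled female one passed without labelled female control 1 or 5, and at -0.35 with 75th percentile scaling of the median signal. The second Bax probe, A_51_P254541, followed the first with r = 0.90 after group means were subtracted and gave -0.15 and -0.08.

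Phlda3, an inhibitor of Akt signalling, read 8.24, 8.48 and 9.08 in labelled male control and 8.47, 8.86 and 8.97 in labelled male pesticide. It read 8.29, 8.89 and 10.03 in labelled female control and 8.62, 9.02 and 9.22 in labelled female pesticide. The single value of 10.03, on labelled female control 4, stood apart from the other 23 arrays. The differences were 0.23 (-0.19 to 0.64) and 0.02 (-0.40 to 0.43), and neither passed.

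Trp53inp1, a nuclear protein that promotes p53 phosphorylation, read 11.10, 11.25 and 11.40 in labelled male control and 11.10, 11.54 and 11.77 in labelled male pesticide. It read 10.93, 11.34 and 11.82 in labelled female control and 11.52, 11.75 and 12.02 in labelled female pesticide. In labelled females only control 4 (11.75) and 6 (11.82) reached the pesticide arrays. The gene rose by 0.39 (SE 0.13, adjusted p = 0.042, limma) in labelled females, and the difference in labelled males was 0.21 (SE 0.13, adjusted p = 0.28, limma). Without labelled female control 4 and 6 together it was 0.59 (adjusted p = 0.0018, limma). The call was lost without any 1 of labelled female control 1, 2, 3 or 5, without labelled female pesticide 1, 3, 4, 5 or 6, and under both 75th percentile scalings (0.35 and 0.33). It was also lost with no filter on dim probes and with only the arrays compared (adjusted p = 0.072 and 0.092, limma). On no slide alone did it pass. The slides gave 0.43, 0.31 and 0.44. The second probe, A_55_P1973906, was dimmer and gave 0.07 in labelled females and 0.11 in labelled males, so the call held for 1 of 2 probes.

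Eda2r, a receptor of the tumour necrosis factor family encoded on the X chromosome, was near background. Its 3 probes were well above background on 6, 1 and 2 of 24 arrays and none was tested, so no fold is given. Probe A_52_P354844 read 5.20 to 5.88 in labelled male control, 5.26 to 5.62 in labelled male pesticide and 5.41 to 5.93 in labelled female pesticide. In labelled female control it read 5.41, 5.47, 5.52 and 5.62 on arrays 1, 2, 3 and 5, and 6.78 and 6.97 on arrays 4 and 6. The 2 highest arrays were those that were also highest for Mdm2.

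Sesn1, Btg2 and Gdf15 are the members tied to metabolic and growth control. Sesn1 read 9.95, 10.48 and 10.72 in labelled male control and 10.55, 10.77 and 11.02 in labelled male pesticide. It read 10.10, 10.25 and 10.60 in labelled female control and 10.43, 10.59 and 10.77 in labelled female pesticide. The labelled pesticide arrays were shifted up in both labelled sexes, with overlap. Sesn1 rose by 0.34 (SE 0.11, adjusted p = 0.038, limma) in labelled males, and the labelled female difference was 0.29 (SE 0.11, adjusted p = 0.086, limma), with a difference between the effects of 0.05 (-0.29 to 0.38). The labelled male call was lost under both 75th percentile scalings (0.29 and 0.28), without labelled male control 1, 4 or 6, and without labelled male pesticide 1, 3, 4 or 6. It was also lost with no filter on dim probes and with only the arrays compared (adjusted p = 0.065 and 0.071, limma). On no slide alone did it pass. The labelled female difference passed without labelled female control 3 or labelled male control 4. The slides gave 0.28, 0.59 and 0.14.

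Btg2, an antiproliferative immediate early gene, read 8.61, 9.25 and 9.58 in labelled male control and 8.33, 9.51 and 10.11 in labelled male pesticide. It read 8.79, 9.47 and 9.67 in labelled female control and 9.14, 9.39 and 9.96 in labelled female pesticide. Labelled male pesticide held both the lowest and the highest array. The within-group SD of 0.44 exceeded that of 95.3% of tested probes, the second probe A_55_P2909355 had r = 0.96 with the first after group means were subtracted, and the differences of 0.26 (-0.22 to 0.75) and 0.13 (-0.36 to 0.61) did not pass.

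Gdf15 had the largest passing difference of the 9 genes. It read 9.21, 9.91 and 10.57 in labelled male control and 10.45, 10.75 and 11.75 in labelled male pesticide, so that 1 labelled control array reached the lower end of the pesticide arrays. In labelled female control it read 10.23, 11.18 and 12.27, and in labelled female pesticide 10.76, 11.35 and 12.34, with nearly the same range. Gdf15 rose by 0.97 (SE 0.34, 1.97-fold, adjusted p = 0.041, limma) in labelled males, from 9.91 ± 0.49 to 10.88 ± 0.46 (SD, n = 6 each). The labelled female difference was 0.19 (-0.51 to 0.89), and the difference between the effects, 0.79 (-0.20 to 1.78), did not pass (adjusted p = 1, limma).

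On the control label, the labelled male minus labelled female difference of Gdf15 was -1.36 on the log2 scale (95% interval -2.06 to -0.66). The unadjusted p was 5.0e-04 and the adjusted p 0.28 (limma), so this difference did not pass over the whole array either. The labelled male pesticide call for Gdf15 was lost without labelled male control 1, 2, 3 or 6 and without labelled male pesticide 1, 2, 3 or 6. It was also lost with no filter on dim probes (adjusted p = 0.069, limma) and on each slide alone. Each slide gave a positive labelled male value (0.96, 0.79 and 1.17), while the labelled female values were 0.65, -0.80 and 0.71, so the second slide went the other way. These comparisons share arrays, since the labelled male control group enters both. Gdf15's within-group SD of 0.64 was larger than that of 98.7% of tested probes.

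Of 9 genes and 14 probes, 0 passed in the difference between the labelled sexes' effects, in labelled male against female on the control label, and in the same comparison on the pesticide label (limma). At an unadjusted p under 0.05, the numbers were 1, 1 and 3 of 14 probes, beside 3.94%, 5.59% and 4.09% of all tested probes. The probes in the last comparison were both tested Cdkn1a probes, at -1.48 and -0.60, and the bright Trp53inp1 probe, at -0.31. The separate-group background was 0.436% of tested probes on the control label and 0.271% on the pesticide label, and 0 members were separate.

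Among the genes that control p53, Trp53 itself read 7.47 ± 0.15, 7.37 ± 0.15, 7.54 ± 0.09 and 7.36 ± 0.09 in labelled male control, labelled male pesticide, labelled female control and labelled female pesticide (SD, n = 6 each). Its differences of -0.10 and -0.18 did not pass, nor did those of its inhibitor Mdm4 (0.04 and 0.05) or the phosphatase Ppm1d (-0.15 and -0.04). Of 17 tested regulators, 2 were higher and 1 lower in labelled males, and 2 were higher and 3 lower in labelled females, or 2 higher and 1 lower without labelled female control 6. That is 3 of 17 beside 24.9% of all named genes in labelled males, and 5 of 17 beside 20.3% in labelled females. The family member Trp63 was higher in both, by 1.67 and 1.27. The damage kinase Atr was lower in both, by 0.44 and 0.46. In labelled females Cdkn2a, whose Arf product binds Mdm2, was higher by 0.57 and the DNA-dependent kinase Prkdc lower by 0.39. The list's median was -0.05 and -0.04.

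Other p53 targets also moved both ways. Of 28 tested, 6 were higher and 2 lower in each labelled sex, with a median of 0.09 in both, so 8 of 28 passed against the 24.9% and 20.3% of all named genes given above. Ddb2, a DNA damage recognition subunit, was higher by 0.20 and 0.33, and Tnfaip8, an apoptosis regulator, by 0.66 and 0.48. In labelled females Sesn2, a sestrin, was higher by 0.45 and Ei24, a membrane protein of autophagy, by 0.50. Without labelled female control 6, the labelled female count was 3 higher and 1 lower, and without labelled female control 4 it was 8 higher and 1 lower.

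Cell cycle genes that p21 lowers through the DREAM repressor complex were lower where they passed. In labelled males 1 of 15 passed, the S-phase factor E2f1, at -0.84. In labelled females 5 of 15 passed: E2f1 (-1.14), the replication helicase subunits Mcm2 (-1.07) and Mcm5 (-1.69), the mitotic kinase Aurka (-0.93) and the nucleotide reductase subunit Rrm2 (-0.78). The share of all named genes that were lower was 10.9% in labelled males and 10.1% in labelled females. The list's medians were -0.26 and -0.67. The summed level of these genes was 13.09 and 13.08 on labelled female control 4 and 6, the arrays with the highest Mdm2, and 11.57 to 12.02 on the other labelled female controls. Without these 2 arrays, 3 of 15 passed in labelled females and the median was -0.12. Cdkn1a was not high on both of these arrays, at 10.88 and 9.74.

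Immediate early and integrated stress response genes are given because Btg2 belongs to the first class and Gdf15 is also driven by the second. Of 15 immediate early genes, 2 were higher in labelled males, Klf6 (0.89) and Btg1 (0.47). In labelled females Btg1 was higher (0.44) and Jun lower (-0.80), while without labelled female control 4 only 1 gene passed and without labelled female control 6 none did. Of 12 stress response genes, 2 were higher and 1 lower in labelled males, and 1 was higher and 2 lower in labelled females. Beside both lists, 14.0% of all named genes were higher and 10.9% lower in labelled males. In labelled females these shares were 10.3% and 10.1%. Asparagine synthetase, Asns, was lower by 2.44 and 1.67, and the stress protein Nupr1 was higher by 1.02 and 0.79. Atf4, the central transcription factor of this response, was lower by 0.42 in labelled females, and the serine synthesis enzyme Phgdh was higher by 0.84 in labelled males.

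**Figure D4:**
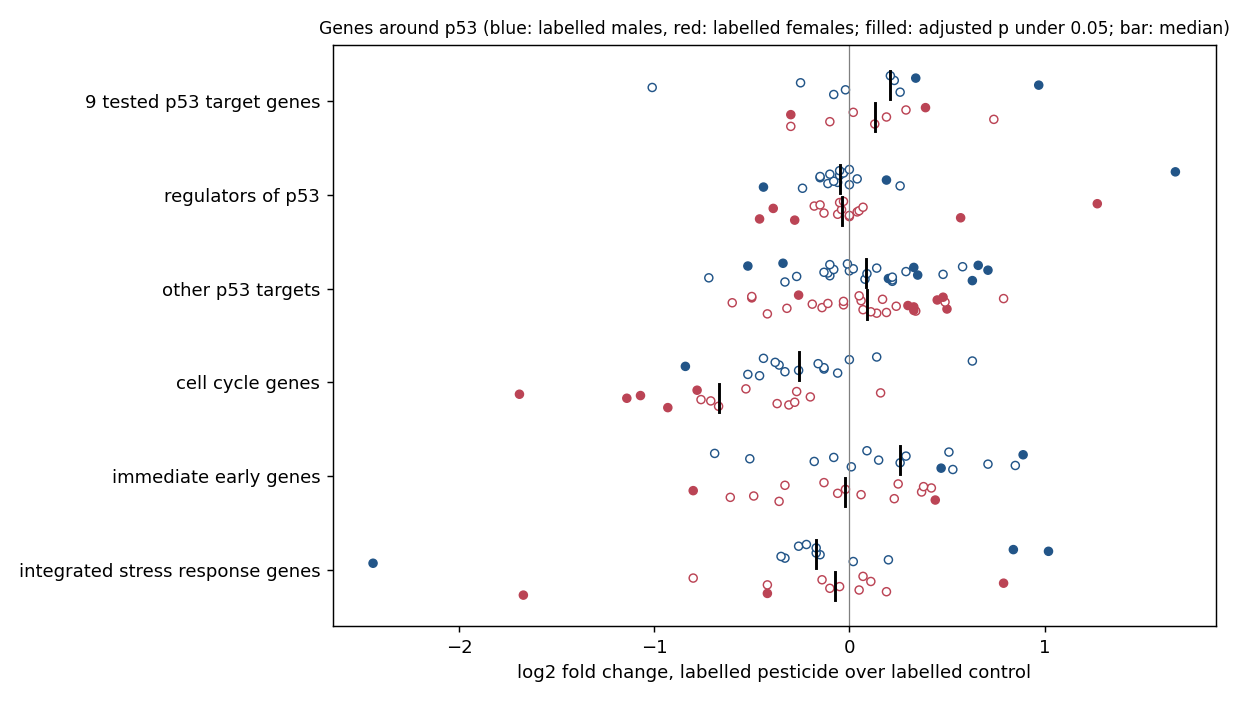
Log2 fold change between labelled pesticide and labelled control (horizontal axis) of each tested gene in the 9 p53 targets and 5 related lists, in labelled males (blue) and labelled females (red), filled where the adjusted p was under 0.05, with a bar at each median. The p53 targets lie on both sides of 0 with medians of 0.21 and 0.13, and the cell cycle genes lie mostly below 0 with medians of -0.26 and -0.67.

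Markers of several other liver cell types were higher with the pesticide label. Beside them, 14.0% of all named genes were higher in labelled males and 10.3% in labelled females. Kupffer cell and macrophage markers were higher for 9 of 10 genes in both labelled sexes, with a summed level of 13.80 to 15.77 in labelled male control, 15.18 to 15.89 in labelled male pesticide, 13.53 to 15.82 in labelled female control and 14.69 to 16.22 in labelled female pesticide. Endothelial markers were higher for 6 of 8 genes in both, and stellate cell markers for 7 of 8 in labelled males and 3 of 8 in labelled females. T and NK cell markers were higher for 2 of 7 and 0 of 7, B cell markers for 3 of 6 and 0 of 6, neutrophil markers for 3 of 5 in both, and bile duct markers for 0 of 6 in both. Without labelled female control 4, the T and NK cell count was 6 of 7 in both labelled sexes. On labelled female control 4, the array with the highest Phlda3, the T and NK cell sum was 14.92, against 10.66 to 11.85 on the other labelled female controls, and the macrophage sum was 15.82, against 13.53 to 14.28. On labelled female control 6 these sums were 10.89 and 14.21. The part of these cell types in the p53 target values was not tested.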

How the data were processed

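Each deposited scanner file gives the fluorescence intensity and quality marks of every spot, per the file headers, and the submitters' processing notes name Agilent Feature Extraction 10.10.1.1. The authors also deposited a table of log2 values, described in the labels as filtered, quantile normalised median signals; it was an alternative, and member values differed from it by at most 0.044. Gene names and mm9 positions are those of the files, with names updated through RefSeq accessions or synonyms.

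From the scanner files, control spots were left out, non-uniform outlier spots set to missing, spots of a probe averaged, and log2 median signals quantile normalised over 56605 probes. A probe was tested when well above background on 4 or more arrays of any 1 group. In limma 3.58.1 (R 4.3.3), lmFit took a mean for each labelled group over the 24 arrays, and contrasts were tested with eBayes, two-sided, and adjusted by Benjamini-Hochberg over all 32078 tested probes at 0.05. The fit was tested on simulated data. Log2 fold changes are labelled pesticide minus labelled control unless stated, and the number of arrays limits their precision. The brightest tested probe stood for its gene. Permutations within groups numbered 100000, or all of them for a single slide.

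Named were all members with every probe, up to 4 passing genes of smallest adjusted p from each related list, with Trp53, Mdm4 and Ppm1d, and the 5 genes most like Cdkn1a and Mdm2. The fifth passing cell cycle gene is named as well, after its value was seen. The members and lists were chosen with earlier results of these data known. Same-numbered arrays across groups had correlated deviations of -0.12 to 0.34, with a median of 0.08 against -0.02 for differently numbered arrays. Of 24 arrays, 14 were most alike an array of their own number. Arrays of the same number always shared a slide, so these values cannot tell a pairing from the slide. The labels name no pairing, so the main fit had no block, and a replicate block was run as an alternative. Alternatives were other background corrections, scalings and filters, outlier spots kept, slide and replicate blocks, each slide alone, other limma settings, the deposited table and leaving out each array; leaving out labelled female control 4 and 6 together was added after seeing the data.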

Additional observations from a re-analysis of the deposited data

Results flagged for a closer look

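Over 72 sets of 6 arrays (18 probes in 4 labelled groups), 5 held an array far from the rest, by a gap that, as a share of the group's whole range, exceeded Dixon's 95% critical value. Chance alone marks about 1 in 20 such sets. Phlda3 on labelled female control 4 read 10.03, against 8.29 to 8.91 on the other arrays (gap 0.64 of the range). The dim Mdm2 probe A_55_P2606086 on labelled male pesticide 4 read 7.75, against 6.78 to 7.10 (0.67), while the bright Mdm2 probe read 11.65 on that array, inside its group's range. The second Bax probe A_51_P254541 on labelled male control 6 read 9.78, against 10.09 to 10.27 (0.64), and the first Bax probe was also lowest there, at 10.83. The near-background Eda2r probe A_52_P207163 on labelled female pesticide 3 read 6.57, against 4.91 to 5.08 (0.90), and this array also had the most probes above background, 39032. The Eda2r probe A_66_P122860 on labelled female pesticide 2 read 5.99, against 4.87 to 5.12 (0.78).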

How the results depend on the processing

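In labelled males the number of p53 targets that passed was 0 with no filter on dim probes, 0, 1 and 1 on slides 1, 2 and 3 alone, 3 without labelled female control 4 and 6 together, and 0 to 3 when each array was left out, with 3 without labelled female control 6. In labelled females it was 1 with 75th percentile scaling of the processed signal, 0 with no filter, 0 on each slide alone, 0 with only the arrays compared, 1 without labelled female control 4 and 6 together, and 0 to 3 when each array was left out, with 3 without labelled male control 4. With no filter 10 genes were counted and more probes were adjusted for; elsewhere the cause was not tested. Slides alone, with 2 arrays per group, also called fewer probes of the whole array: 1052, 583 and 459 in labelled males and 1041, 319 and 346 in labelled females. Cdkn1a in labelled males turned direction and passed on slide 2 alone, at 1.09. Values that passed neither way also turned direction: over 39 settings, 6 times for Ccng1 and 1 time each for Trp53inp1 and Btg2 in labelled males, and 6 times for Phlda3, 2 each for Gdf15 and Ccng1 and 1 for Btg2 in labelled females. The r of Cdkn1a and Mdm2 was 0.92 on slide 1 alone. With a replicate block, the counts were 2 in labelled males and 2 in labelled females and r was -0.08, and the block changed no call of a member. Over the whole array, 8099 probes passed in labelled males with this block and 7131 without it. In labelled females these numbers were 6751 and 5878. Of the 1746 single-gene values under other settings, 1630 kept their direction and side of the threshold. These values include the 3 comparisons of labelled sexes, where no probe of the whole array passed in the main fit. The calls themselves held less often. Of 39 other settings, the labelled male calls passed in 27 for Gdf15 and 25 for Sesn1. The labelled female calls passed in 27 for Mdm2 and 23 for Trp53inp1. The 3 comparisons of labelled sexes gave 0 under every setting run.

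Limits: dim probes, such as those of Eda2r, cannot show a difference near background, and with 6 arrays per group the wide intervals of Cdkn1a and Gdf15 leave all but large differences undecided.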
